A study of Mus musculus with 19 samples.

Results

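The genes of blood coagulation and fibrinolysis were followed in liver after loss of the RNA-binding protein RALY from hepatocytes. They comprised 34 gene symbols, chosen by name for their known roles as clotting factors, members of the contact and kinin system, anticoagulants, proteins of clot lysis, enzymes of the vitamin K cycle and carriers of clotting factors out of the endoplasmic reticulum (ER). All 34 were found among the 24054 symbols of the deposited RNA-seq table, and the list uses no measured value as a criterion, although it was drawn up with earlier results of these data known.

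Liver RNA came from mice of C57BL/6 background that were homozygous for a floxed Raly allele (Raly flox/flox) and fed a chow diet. L-RalyKO mice (n = 3) had received AAV8.TBG.Cre and control mice (n = 3) AAV8.TBG.GFP, 4 weeks before collection. These are fewer mice than the study describes for this assay, and any others were not analysed here. The TBG promoter restricts expression of the virus cargo to hepatocytes, so that other liver cells keep Raly, and the control mice carry the floxed allele too although their labels call them wild type. The methods of the study give male mice unless stated otherwise and littermate controls, and no age is given for these 6 mice. The ATAC-seq and ChIP-seq samples of the study were not analysed here.

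Clotting proceeds through serine proteases that circulate as inactive precursors and activate each other in turn until thrombin cleaves fibrinogen to fibrin. Tissue factor on cell membranes starts the cascade with factor VII, the contact system of factor XII, prekallikrein and kininogen can start it through factor XI, antithrombin and the protein C pathway restrain it, and plasmin dissolves the clot. Hepatocytes secrete most of these plasma proteins, while factor VIII, von Willebrand factor, thrombomodulin and tissue plasminogen activator come mainly from endothelium.

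A deposited value is the number of reads on a gene divided by the effective size of its library, not scaled by gene length, and the 6 libraries held between 28302983 and 38052705 reads. In these libraries 3 reads correspond to a value between 0.0789 and 0.105. Raly itself had a log2 fold change of −2.67 (limma adjusted p = 6.92e-07), with no overlap of the groups. Among 11580 genes whose mean value reached 1, the shares called higher and lower in L-RalyKO liver at an adjusted p under 0.05 were 3.36% and 3.19%, together 6.55% (limma, Benjamini-Hochberg adjustment over all genes tested). The first principal component of these 11580 genes held 50.7% of the variance. On it the L-RalyKO livers lay from −14.3 to −11.2 and the control livers from 10.8 to 17.4. On the second, which held 16.1% of the variance, control 3 and control 2 lay at opposite ends. Among the marker genes of hepatocytes, endothelium, Kupffer cells, stellate cells, cholangiocytes, red cells and platelets that were tested, none passed the threshold (Apoa1, Ahsg and Sox9, all higher, had an unadjusted p under 0.05), and those of neutrophils and lymphocytes lay under the limit for testing. In RNA of whole liver, fewer cells of a type and less RNA per cell cannot be told apart.

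The transcripts of the coagulation genes spanned a wide range in control liver. Divided by the length of their exons in kb, the values of the fibrinogen chains were highest, with 1541 ± 48.4 for Fgb, 1132 ± 28.6 for Fga and 943 ± 6.83 for Fgg (SD, n = 3 control mice). Plasminogen (Plg, 857 ± 29.2 per kb), antithrombin (Serpinc1, 827 ± 27.4), kininogen 1 (Kng1, 594 ± 25.4), histidine-rich glycoprotein (Hrg, 588 ± 11.7), prothrombin (F2, 339 ± 7.69) and protein C (Proc, 263 ± 12.4) followed. Lower in the order, F11 stood at 31.5 ± 3.67 and protein S (Pros1) at 14.0 ± 1.08 per kb. A wide gap then separated Pros1 from the 7 lowest genes, namely F8 (1.47 ± 0.0709), F3 (1.34 ± 0.334), Thbd (1.15 ± 0.364), Plau (0.926 ± 0.170), Tfpi (0.845 ± 0.138), Vwf (0.611 ± 0.0443) and Plat (0.104 ± 0.00749).

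Of the 33 pairs of neighbours in this order, 23 did not overlap between their values in the control mice. The neighbours that did overlap were Plg and Serpinc1, Kng1 and Hrg, Serpinf2 and F12, Proz and F5, F9 and F13b, F7 and Lman1, and the run from F8 through F3, Thbd and Plau to Tfpi. With the longest transcript in place of all exons as the length, 20 of 33 pairs were apart.

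**Figure D1:**
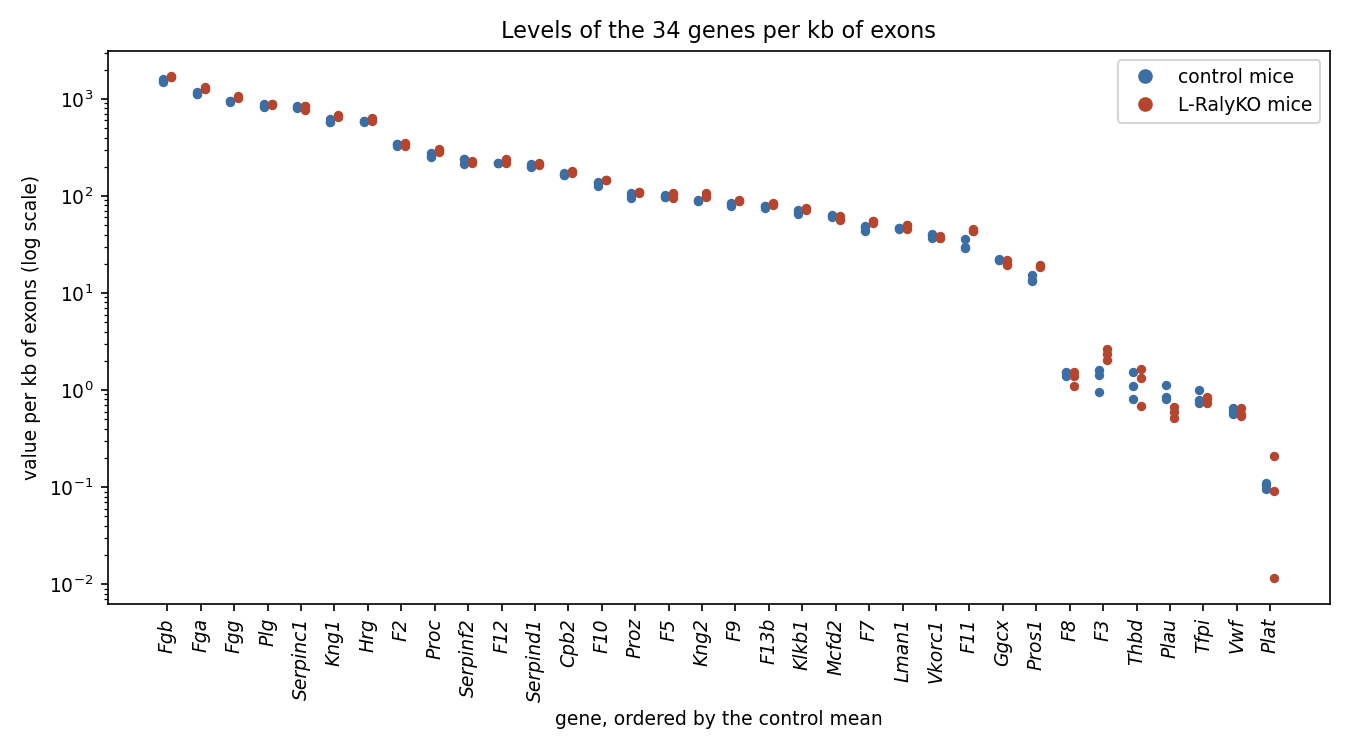
Value per kb of exons of each of the 34 genes in each liver, on a log axis, with genes ordered by their mean in control mice. Each point is 1 mouse, blue for control and red for L-RalyKO. Fgb, Fga and Fgg stand highest and the 7 genes from F8 to Plat lie apart at the low end, where the mice scatter most.

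Of the 34 genes, 33 had a mean value that reached 1 and were tested, and Plat was not. F11, Pros1 and F3 rose in L-RalyKO liver and no gene fell at an adjusted p under 0.05 (limma), which is 9.09% of the 33, beside 6.55% of all genes tested. At an unadjusted p under 0.05 there were 11 genes, 10 higher and 1 lower (Plau), where 22.7% of all genes passed and 11.8% were higher. Every L-RalyKO liver lay above every control liver in 16 of the 33 (48.5%, beside 14.4% of all genes) and below in 2, Plau and Ggcx (13.7% of all genes). The log2 fold change was above 0 in 24 and below 0 in 9, where 51.2% of all genes were above 0, and the median was 0.07 beside 0.00 for all genes. Fold changes are given with their standard error (SE). Under scaling to the total of reads the 2 medians were 0.04 and −0.03, 23 genes had a log2 fold change above 0, and 14 had every L-RalyKO liver above every control liver. In other lists, every L-RalyKO liver lay above every control liver in 6 of 22 further haemostasis genes (27.3%) and 7 of 23 regulators (30.4%). The same held for 6 of 14 acute phase genes (42.9%) and 3 of 6 hepatocyte markers (50%). Genes with every L-RalyKO liver below numbered 3, 3, 1 and 1 in these lists. No test was run on the 33 genes as a whole. For a single gene the exact permutation test cannot go below p = 0.1 with 3 mice against 3, and where groups are said not to overlap below, its two-sided p was 0.1.

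**Figure D2:**
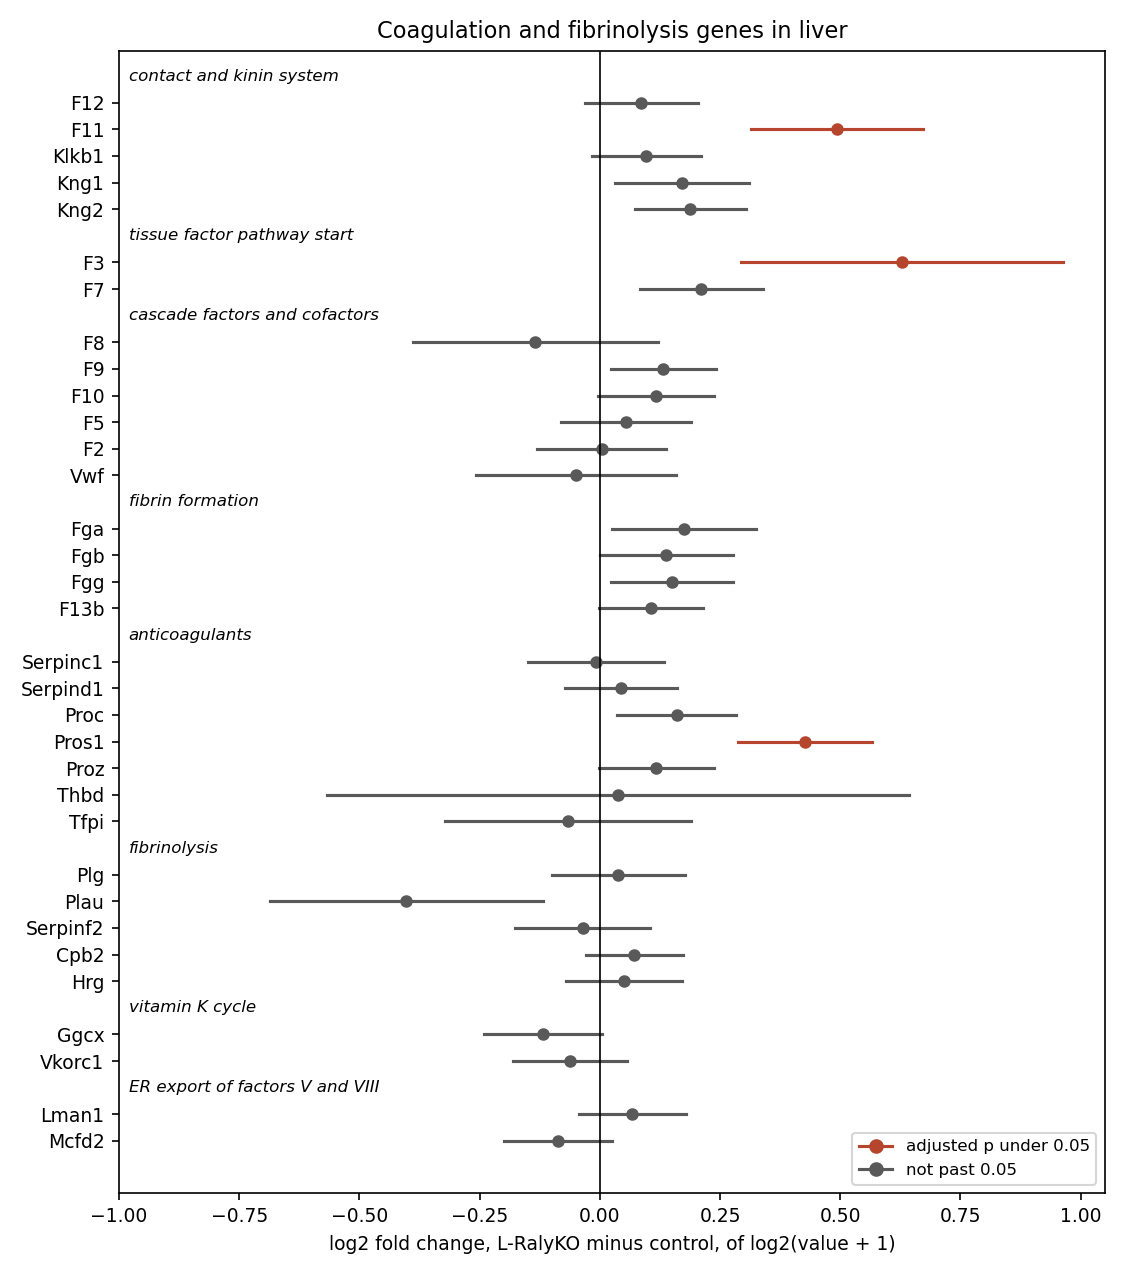
Log2 fold change of L-RalyKO against control liver on the log2(value + 1) scale for the 33 genes tested, grouped by role, with 95% intervals from limma. Red marks F11, F3 and Pros1, the genes at an adjusted p under 0.05, whose values are 0.49, 0.63 and 0.43.

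The promoters of the genes that rose are shown first, since their start regions differ from each other in makeup. RefSeq promoter windows of build GRCm38.p6, from 250 bases before to 50 after the start, were found for 26 of the 34 genes (27 windows, with 2 for Tfpi). Each is printed 5′ to 3′ on the strand of the gene, and capitals mark matches to the motifs described next. F11 lies at chr8:45261982-45262281 (− strand), Pros1 at chr16:62854057-62854356 (+) and F3 at chr3:121723287-121723586 (+).
F11: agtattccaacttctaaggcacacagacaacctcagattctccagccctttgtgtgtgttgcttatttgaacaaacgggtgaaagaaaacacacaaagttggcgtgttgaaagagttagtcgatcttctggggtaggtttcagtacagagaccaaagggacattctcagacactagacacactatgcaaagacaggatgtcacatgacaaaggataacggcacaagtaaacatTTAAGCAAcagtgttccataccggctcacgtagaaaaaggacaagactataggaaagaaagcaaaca
Pros1: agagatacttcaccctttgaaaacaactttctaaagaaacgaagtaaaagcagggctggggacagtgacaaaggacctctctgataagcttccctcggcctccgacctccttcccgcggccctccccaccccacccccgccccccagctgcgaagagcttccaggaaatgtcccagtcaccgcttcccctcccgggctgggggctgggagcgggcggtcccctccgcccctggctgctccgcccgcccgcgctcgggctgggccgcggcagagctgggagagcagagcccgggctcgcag
F3: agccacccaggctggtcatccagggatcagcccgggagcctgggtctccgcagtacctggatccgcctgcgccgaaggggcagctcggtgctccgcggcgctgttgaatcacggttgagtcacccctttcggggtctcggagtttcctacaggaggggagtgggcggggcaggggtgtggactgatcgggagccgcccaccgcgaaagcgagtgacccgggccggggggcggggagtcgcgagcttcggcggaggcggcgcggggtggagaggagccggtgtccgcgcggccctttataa

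The windows of Fga, at chr3:83025903-83026202 (+), and Fgb, at chr3:83049814-83050113 (−), are given for comparison because these genes, the most abundant of the set, held a match to the same motif as F11.
Fga: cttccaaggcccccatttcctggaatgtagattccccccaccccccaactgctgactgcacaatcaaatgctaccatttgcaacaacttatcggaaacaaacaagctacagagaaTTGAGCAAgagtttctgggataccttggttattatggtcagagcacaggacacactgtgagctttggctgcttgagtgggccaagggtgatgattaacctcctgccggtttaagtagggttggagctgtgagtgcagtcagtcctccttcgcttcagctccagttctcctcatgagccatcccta
Fgb: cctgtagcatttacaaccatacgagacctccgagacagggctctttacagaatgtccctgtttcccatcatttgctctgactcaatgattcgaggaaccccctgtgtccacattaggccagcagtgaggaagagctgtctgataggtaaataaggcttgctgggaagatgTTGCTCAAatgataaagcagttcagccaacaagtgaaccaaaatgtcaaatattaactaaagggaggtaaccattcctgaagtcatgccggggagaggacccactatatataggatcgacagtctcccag

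Motifs were searched on both strands as plain letters, CCAAT for the NF-Y box, CAAAGTNCA for HNF4 and TTGCNNAA for C/EBP, and matches of different motifs may share bases. TTGCNNAA was present in 10 of the 27 windows (37.0%) against 10.8% of all 32851 windows of the table. CCAAT was found in 6 (22.2% against 37.4%) and CAAAGTNCA in 2, those of F9 and Serpind1 (7.41% against 1.41%). F11 had 1 match to TTGCNNAA, close to the start site at position −17, while the windows of Pros1 and F3 held no match to any of the 3 motifs. Fga and Fgb each had TTGCNNAA (at −135 and −80), and Fgg, the third fibrinogen chain, had none. The windows of F3 and Pros1 were rich in G and C (70.3% and 66.7%) and that of F11 was not (42.3%). The window of Mcfd2, which was not called, was richer still (72.3%), and the median of the 27 windows was 50% and that of all windows 52.7%. These matches describe letters in short windows, and binding was not measured here.

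Within the contact and kinin system, 1 of 5 genes, F11, rose, where 3.36% of all genes did. It encodes the precursor of factor XIa, the protease that activates factor IX, and lies on the − strand of chromosome 8, 46326524 to 46347385 in NCBIM37 (mm9), the build used for all gene positions given here. The values of F11 were 104, 98.4 and 96.6 in the L-RalyKO mice and 66.4, 80.3 and 65.6 in the controls. The lowest L-RalyKO liver was thus above the highest control liver, control 2, and the mean was 40.7% higher (99.6 ± 3.63 against 70.8 ± 8.24, SD, n = 3 each). The log2 fold change was 0.49 (SE 0.079, 95% interval 0.31 to 0.67, limma adjusted p = 0.0100). Its adjusted p stayed under 0.05 with every alternative tool, scaling and expression filter and without each mouse in turn, from 1.71e-06 to 0.0460, but its change was below a 1.5-fold minimum.

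Klkb1, the prekallikrein gene, lies 7410 bases from F11 on the same strand. Its values were 219, 214 and 225 in L-RalyKO and 195, 208 and 212 in control liver. The groups did not overlap, but the log2 fold change of 0.10 (95% interval −0.02 to 0.21, limma adjusted p = 0.290) did not pass the test. The ratio of F11 to Klkb1 per kb within a liver does not depend on scaling. It was 0.603 ± 0.0298 in L-RalyKO and 0.458 ± 0.0504 in controls (SD, n = 3 each, two-sided exact permutation test, p = 0.1), without overlap. Of the exon bases of Klkb1, 10.5% also belong to Cyp4v3 on the same strand, so that its reads may in part be those of Cyp4v3.

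The kininogens carry prekallikrein and factor XI in plasma and release the vasodilator peptide bradykinin. Kng1 had values of 2083, 2177 and 2071 in L-RalyKO and 1819, 1967 and 1842 in control mice (log2 fold change 0.17, 95% interval 0.03 to 0.31, limma adjusted p = 0.140). For Kng2 they were 246, 270.4 and 250.3 against 220.0, 224 and 228, with a log2 fold change of 0.19 (95% interval 0.07 to 0.30, limma adjusted p = 0.0648). Both genes had no overlap of the groups, and DESeq2 on the recovered reads called Kng2 (adjusted p = 0.0389) but not Kng1. Reads could have been split between them, since 16.1% of the 50-base words of the Kng1 transcripts and 19.3% of those of Kng2 occur in the other gene. The ratio of Kng2 to Kng1 per kb was 0.153 ± 0.00373 in L-RalyKO and 0.151 ± 0.00635 in controls (SD, n = 3 each, two-sided exact permutation test, p = 0.7). F12, the precursor of factor XIIa, had overlapping groups (473, 461 and 429 against 424, 428 and 429.9) and a log2 fold change of 0.09 (95% interval −0.03 to 0.20).

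At the start of the tissue factor pathway, 1 of 2 genes, F3, rose (3.36% of all genes). F3 encodes tissue factor, the membrane receptor of factor VII, and lies on the + strand of chromosome 3, 121426455 to 121437970. Its level in liver was low, with values of 4.42, 4.93 and 3.82 in L-RalyKO and 2.71, 3.02 and 1.81 in control mice, which rest on 152, 170 and 145 reads and on 91, 86 and 67 reads. Every L-RalyKO liver was above every control liver, and control 3 was lowest. The mean was 74.7% higher (4.39 ± 0.559 against 2.51 ± 0.626, SD, n = 3 each), and the log2 fold change, which the added 1 holds down at this level, was 0.63 (SE 0.15, 95% interval 0.29 to 0.96, limma adjusted p = 0.0418). This call was close to the threshold. The adjusted p was 0.118 without L-RalyKO 1, 0.124 without L-RalyKO 2, 0.0586 without L-RalyKO 3, 0.0877 without control 1 and 0.0602 without control 3, and 0.0889 when all genes with at least 1 read were tested (limma).

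F7, made by hepatocytes and activated on tissue factor, had values of 96.9, 102 and 103 in L-RalyKO and 80.9, 88.6 and 90.6 in control liver. The groups did not overlap and the mean was 15.8% higher, but the log2 fold change of 0.21 (SE 0.056, 95% interval 0.08 to 0.34, limma adjusted p = 0.0617) did not pass the threshold. DESeq2 on the recovered reads gave F7 an adjusted p of 0.0416. Tfpi, the inhibitor of the complex of factor VIIa and tissue factor and chiefly an endothelial gene, had values of 4.60, 3.97 and 4.45 against 4.32, 5.47 and 4.05. The Tfpi groups overlapped (log2 fold change −0.07, 95% interval −0.32 to 0.19, limma adjusted p = 0.780). The ratio of F3 to Tfpi per kb was 2.97 ± 0.577 in L-RalyKO and 1.58 ± 0.264 in controls (SD, n = 3 each, two-sided exact permutation test, p = 0.1).

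**Figure D3:**
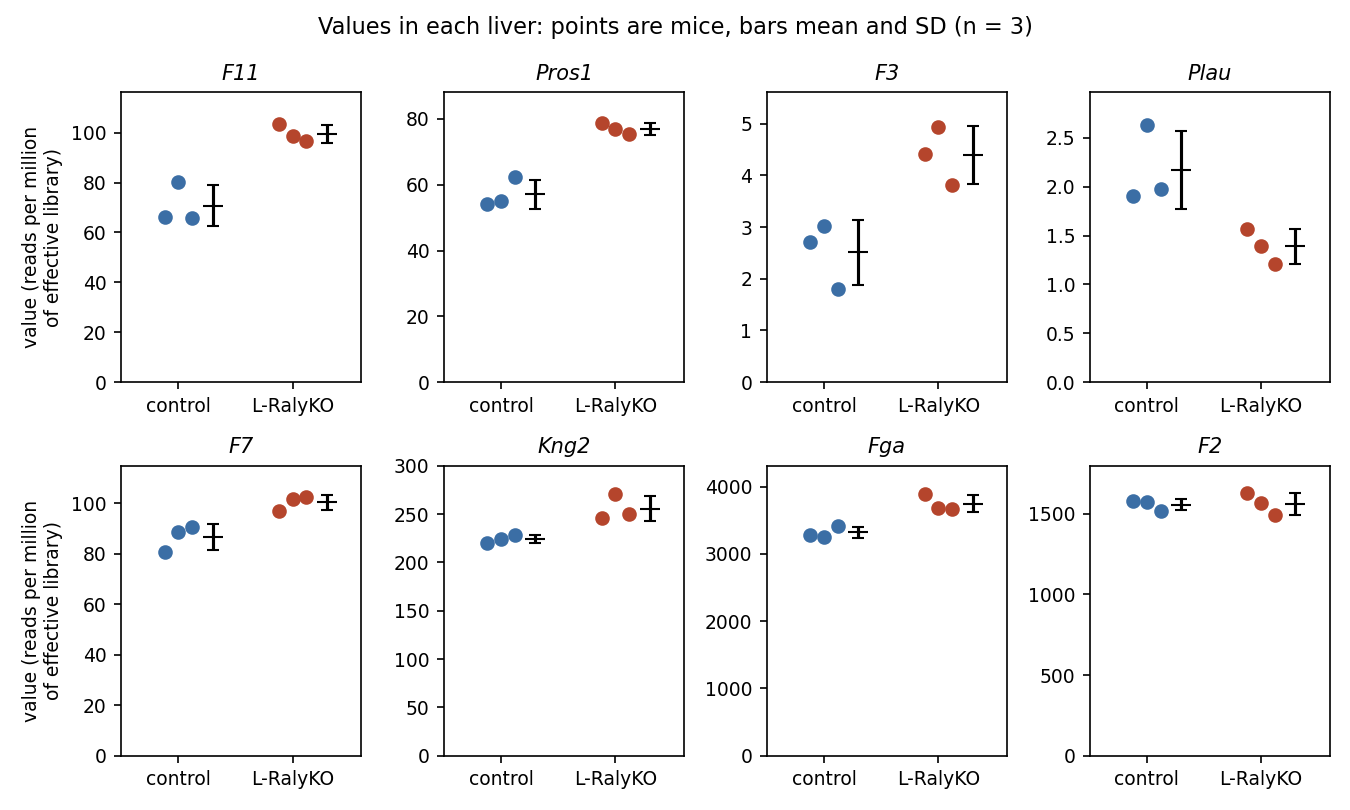
Value in each liver (scaled reads, axes from 0) for F11, Pros1, F3, Plau, F7, Kng2, Fga and F2, with control mice in blue, L-RalyKO mice in red and bars for the mean and SD of 3 mice. The groups lie apart in every panel but that of F2, where the control values from 1516 to 1581 fall within the L-RalyKO range from 1491 to 1627.

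None of the 6 factors and cofactors of the later cascade passed the test, in limma, edgeR, DESeq2 or limma voom, and F9 was the 1 at an unadjusted p under 0.05. F9 and F10, the proteases that form the complexes activating factor X and prothrombin, had no overlap of the groups. F9 had values of 249, 243 and 239.8 in L-RalyKO and 224, 213 and 231 in control liver (log2 fold change 0.13, 95% interval 0.02 to 0.24, limma adjusted p = 0.147). F10 had 400.0, 396 and 396 against 344, 372 and 384, with a log2 fold change of 0.12 (SE 0.053, limma adjusted p = 0.235). F7, F10 and Proz lie in a row on chromosome 8, with 1498 bases between F7 and F10 and 4231 between F10 and Proz, and all 3 had every L-RalyKO liver above every control liver (14.4% of all genes) with log2 fold changes of 0.21, 0.12 and 0.12.

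F2, which encodes prothrombin, had overlapping groups where F9 and F10 did not, and F2 was not compared with them in a test. Its values were 1627, 1566 and 1491 in L-RalyKO and 1581, 1574 and 1516 in control mice, and the groups overlapped fully. The log2 fold change of F2 was 0.00 (SE 0.059, 95% interval −0.13 to 0.14, limma adjusted p = 0.980). F5, the cofactor of factor Xa, ranged from 715 to 789 in L-RalyKO and from 717 to 767 in control liver (log2 fold change 0.05, 95% interval −0.08 to 0.19), and 3.53% of its exon bases overlap Gm16548 on the other strand.

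F8, the cofactor of factor IXa, had values of 15.1, 10.8 and 14.0 in L-RalyKO and 15.1, 13.8 and 14.8 in control liver, with L-RalyKO 2 the lowest. Its log2 fold change was −0.13 (95% interval −0.39 to 0.12, limma adjusted p = 0.523). Vwf, the carrier of factor VIII in plasma, had values of 10.6, 8.65 and 9.13 against 9.75, 10.6 and 9.14 (log2 fold change −0.05, 95% interval −0.26 to 0.16). L-RalyKO 2 was also the lowest library for Vwf, for thrombomodulin (Thbd) and for the summed markers of sinusoidal endothelium, the main source of factor VIII. That sum was 206, 165 and 179 in L-RalyKO and 188, 180.5 and 189.9 in control mice, over 6 of 6 markers of which none passed the test, and its part in the F8 values was not tested. Set against Stab2, a receptor of that endothelium, F8 per kb was 0.239 ± 0.0260 in L-RalyKO and 0.252 ± 0.00759 in controls (SD, n = 3 each, two-sided exact permutation test, p = 0.5).

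The genes of fibrin formation were higher in every L-RalyKO liver than in every control liver in 4 of 4 cases (14.4% of all genes), by 7.67% to 12.9%, but none passed the test in limma, with 2 (Fga and Fgg) at an unadjusted p under 0.05. The fibrinogen genes stand in a row on chromosome 3, Fgg, Fga and Fgb, with 11099 and 8132 bases between them. Fga, the alpha chain, had values of 3889, 3681 and 3672 in L-RalyKO and 3286, 3256 and 3414 in control mice (log2 fold change 0.17, 95% interval 0.03 to 0.32, limma adjusted p = 0.157). Fgb, the beta chain, had 2778, 2839 and 2749 against 2451, 2542 and 2609, with a log2 fold change of 0.14 (limma adjusted p = 0.221). For Fgg, the gamma chain, they were 2071, 2095 and 1999 against 1839.9, 1867 and 1851, with a log2 fold change of 0.15 (95% interval 0.02 to 0.28, limma adjusted p = 0.154). The gaps between the groups were narrow beside the levels, and among the 3 chains DESeq2 on the recovered reads called Fga only (adjusted p = 0.0321).

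The 3 chains are assembled in equal numbers into 1 fibrinogen molecule, and their proportions overlapped between the groups. The ratio of Fga to Fgb per kb was 0.753 ± 0.0292 in L-RalyKO and 0.734 ± 0.0168 in controls (SD, n = 3 each, two-sided exact permutation test, p = 0.5). Those of Fga to Fgg were 1.22 ± 0.0411 and 1.20 ± 0.0336 (exact permutation test, p = 0.5), and those of Fgb to Fgg were 1.62 ± 0.0201 and 1.63 ± 0.0468 (exact permutation test, p = 0.8). The summed values of the chains were 8738, 8615 and 8420 in L-RalyKO and 7577, 7665 and 7875 in control mice, or 0.841% to 0.857% against 0.772% to 0.785% of all values of a library. All 34 genes together made up 2.25% to 2.30% of a library in L-RalyKO and 2.16% to 2.19% in control liver. F13b, the carrier subunit of the fibrin-crosslinking factor XIII, had values of 216, 207 and 212 against 189, 201 and 199.6 (log2 fold change 0.11, limma adjusted p = 0.225).

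Among the anticoagulants 1 of 7 genes, Pros1, rose (3.36% of all genes). It encodes protein S, the cofactor of activated protein C and of Tfpi, and lies on the + strand of chromosome 16, 62854133 to 62929172. Values of Pros1 were 78.9, 76.9 and 75.3 in the L-RalyKO mice and 54.2, 55.1 and 62.2 in the controls. The groups lay far apart beside the spread within each, and the mean was 34.7% higher (77.0 ± 1.79 against 57.1 ± 4.40, SD, n = 3 each). The log2 fold change was 0.43 (SE 0.061, 95% interval 0.29 to 0.57, limma adjusted p = 0.00666), the smallest adjusted p of the 33 genes. The adjusted p of Pros1 ranged from 2.49e-06 to 0.0351 over the alternatives run for F11, leaving out single mice included, and its change too was below the 1.5-fold minimum.

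Protein C, for which protein S is the cofactor, had Proc values of 486, 497 and 464 in L-RalyKO and 428, 454 and 414 in control liver. The groups did not overlap, and the log2 fold change was 0.16 (SE 0.054, 95% interval 0.04 to 0.28, limma adjusted p = 0.122). The ratio of Pros1 to Proc per kb was 0.0642 ± 0.00178 in L-RalyKO and 0.0534 ± 0.00621 in controls (SD, n = 3 each, two-sided exact permutation test, p = 0.1). Thbd encodes thrombomodulin, the endothelial receptor on which thrombin activates protein C. Its values scattered widely, 6.14, 2.52 and 4.92 against 4.11, 3.02 and 5.70, so that the interval of its log2 fold change ran from −0.57 to 0.64 and a difference of moderate size was not detectable.

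Antithrombin, the main inhibitor of thrombin and factor Xa, had overlapping groups. Serpinc1 had values of 1826, 1817 and 1677 in L-RalyKO and 1783, 1842 and 1724 in control liver (log2 fold change −0.01, SE 0.062, 95% interval −0.15 to 0.13, limma adjusted p = 0.954). Serpind1, which encodes the thrombin inhibitor heparin cofactor II, also had overlapping groups, 455 to 475 against 432 to 472 (log2 fold change 0.04, 95% interval −0.07 to 0.16). Proz encodes protein Z, which helps to inhibit factor Xa. Its values were 281, 282 and 284 against 246, 258 and 276, without overlap (log2 fold change 0.12, limma adjusted p = 0.229).

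In fibrinolysis none of the 5 genes tested passed the threshold in limma, edgeR, DESeq2 or limma voom, and the largest difference was that of Plau, the gene of urokinase, a protease that activates plasminogen. Plau had values of 1.57, 1.39 and 1.21 in L-RalyKO and 1.91, 2.63 and 1.97 in control mice, from 46 to 54 and from 64 to 75 reads. It was the 1 gene of this role at an unadjusted p under 0.05. Every L-RalyKO liver was below every control liver, by 35.9% on average, and control 2 was the highest. The log2 fold change was −0.40 (SE 0.12, 95% interval −0.69 to −0.12, limma adjusted p = 0.0953). Over the other settings in which Plau was tested, the adjusted p lay between 0.0736 and 0.222. With a minimum mean value of 5 it was not tested. Plat, which encodes the other plasminogen activator, was at 0.233, 0.0290 and 0.526 in L-RalyKO and 0.268, 0.281 and 0.243 in control liver. These values stand for 1 to 20 reads a library, below the limit for testing.

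Plg, the precursor of plasmin, had values of 2439.7, 2467 and 2364 in L-RalyKO and 2289, 2448 and 2346 in control mice (log2 fold change 0.04, SE 0.061, 95% interval −0.10 to 0.18, limma adjusted p = 0.763). Of the remaining genes of this role only Cpb2 had groups that did not overlap. Serpinf2, the inhibitor of plasmin, ranged from 511 to 531 in L-RalyKO and from 491 to 560.1 in control liver (log2 fold change −0.04, 95% interval −0.18 to 0.10). Cpb2, the carboxypeptidase that removes plasminogen binding sites from fibrin, had values of 255, 266 and 258 against 244, 244 and 253 (log2 fold change 0.07, limma adjusted p = 0.385). Hrg, a plasma protein that binds plasminogen and heparin, ranged from 1030.1 to 1097 against 997 to 1037 (log2 fold change 0.05, 95% interval −0.07 to 0.17).

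The 2 enzymes of the vitamin K cycle did not pass the test either, in any of the 4 tools or at an unadjusted p under 0.05 in limma, and their fold changes were below 0. Ggcx, the carboxylase that makes the calcium-binding Gla residues of the vitamin K dependent factors, had values of 70.3, 62.6 and 64.6 in L-RalyKO and 71.9, 71.1 and 71.3 in control mice. All L-RalyKO livers lay below the narrow control range (log2 fold change −0.12, 95% interval −0.24 to 0.01, limma adjusted p = 0.238). Vkorc1, the reductase that regenerates vitamin K and the target of warfarin, had 88.7, 93.5 and 87.8 against 89.4, 97.3 and 95.5 (log2 fold change −0.06, limma adjusted p = 0.521). Its value is uncertain, since 68.1% of its exon bases are shared with Prss53 on the same strand.

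Lman1 and Mcfd2 form the cargo receptor that carries factors V and VIII from the ER to the Golgi. Lman1 had values of 319, 296 and 321 in L-RalyKO and 296, 297 and 299 in control mice (log2 fold change 0.07, 95% interval −0.04 to 0.18, limma adjusted p = 0.460). Those of Mcfd2 were 161, 149.9 and 147 against 165, 161 and 160.4 (log2 fold change −0.09, 95% interval −0.20 to 0.02, limma adjusted p = 0.341). Neither passed the test, and both overlapped between groups. Their ratio per kb was 0.808, 0.804 and 0.887 in L-RalyKO and 0.731, 0.751 and 0.760 in control liver, without overlap (0.833 ± 0.0471 against 0.747 ± 0.0152, SD, n = 3 each, two-sided exact permutation test, p = 0.1).

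Grouped by shared features, the 7 vitamin K dependent proteins (F2, F7, F9, F10, Proc, Pros1 and Proz) had log2 fold changes from 0.00 to 0.43 with a median of 0.13. Pros1 was the 1 called (6.55% of all genes were), and 6 had every L-RalyKO liver above every control liver (14.4% of all genes), all but F2, whose log2 fold change turned to −0.031 under scaling to total reads. The genes made mainly by endothelium (F8, Vwf, Thbd and Tfpi of those tested) had log2 fold changes from −0.13 to 0.04, with a median of −0.06 and overlap of the groups in all 4. The 27 genes with a control value of at least 50 had a median of 0.10, 22 above 0 (51.2% of all genes) and 15 with every L-RalyKO liver above every control liver (14.4% of all genes). Of the 6 tested below that level, 2 were above 0, F3 and Thbd. The summed markers of hepatocytes, mostly Alb, ranged from 92816 to 93877 in L-RalyKO and from 84190 to 93373 in control mice, with no marker of 6 called, and their part in the values of the hepatocyte genes was not tested.

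Mouse by mouse, the median over the 33 genes of the difference from the control mean was 0.11 in L-RalyKO 1, 0.07 in L-RalyKO 2 and 0.10 in L-RalyKO 3 (log2 scale), and −0.03, 0.01 and 0.02 in control 1, control 2 and control 3. In L-RalyKO 1, 28 of 33 genes were above the control mean, in L-RalyKO 2 and 3 these were 22 and 23, and in the control mice 7, 21 and 20. Control 1, which had the fewest above it, also had the lowest sum of hepatocyte markers, 84190, most of which is Alb (63858). It was the lowest liver for Alb, Apoa1, Ambp and Ahsg but the highest for Ttr (5082) and Apoa2 (4347), and the part of these differences was not tested.

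**Figure D4:**
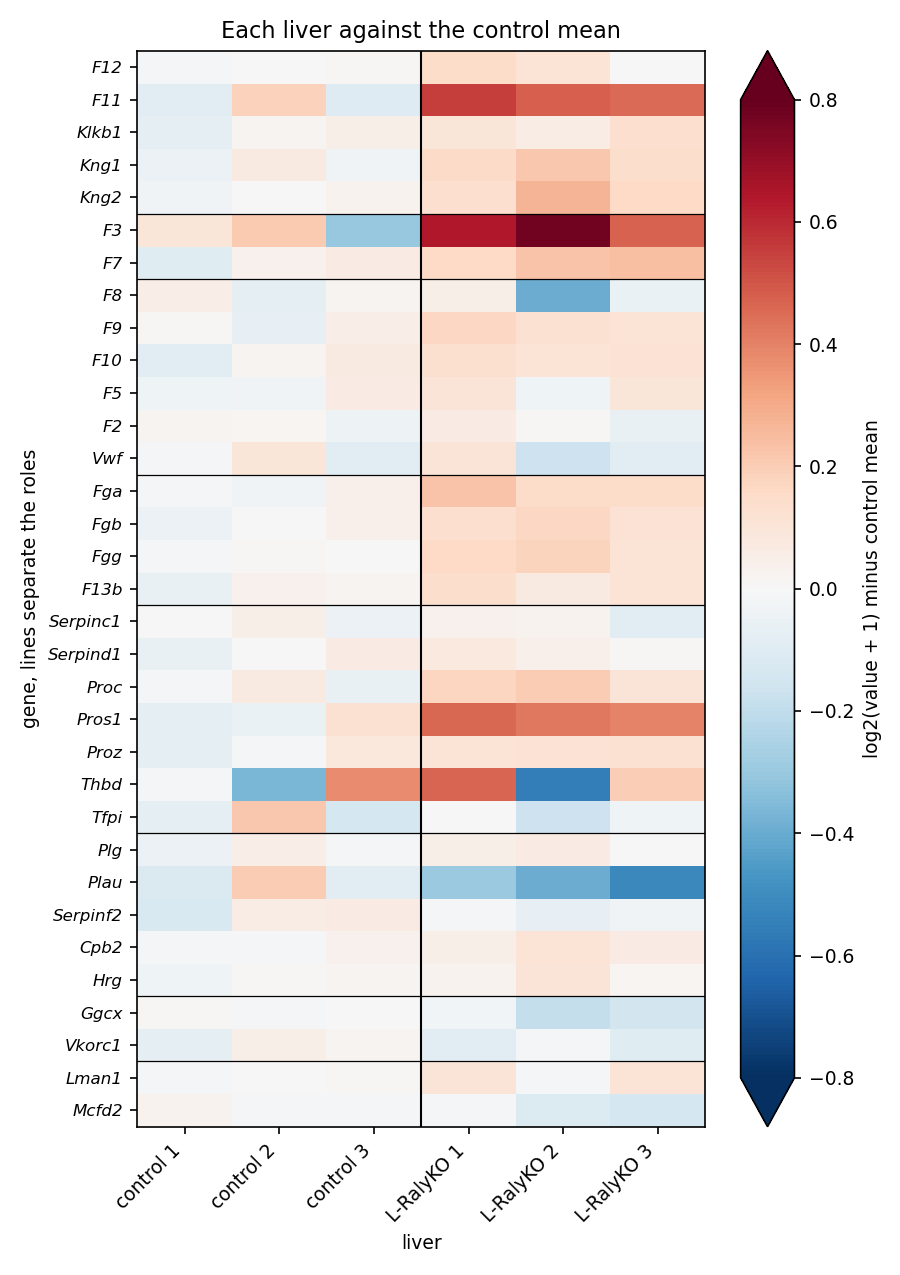
Difference of log2(value + 1) from the mean of the control mice for each of the 33 genes tested (rows, ordered by role) in each liver (columns), red above and blue below, with the colour scale limited to 0.8 on either side. The rows of F11, F3 and Pros1 are red in all 3 L-RalyKO livers, Plau is blue in all 3, and Thbd changes colour from mouse to mouse within each group.

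Other genes of haemostasis were looked at for comparison, 34 symbols of which 22 were tested. In this list 3 rose and none fell (limma), 13.6% against 6.55% of all genes, while 4 were lower at an unadjusted p under 0.05 and DESeq2 called 2 lower, Anxa2 and S100a10. Serpina10, the protein Z dependent inhibitor of factor Xa, had values of 125, 126 and 126 in L-RalyKO and 104, 107 and 108 in control mice (log2 fold change 0.24, SE 0.043, limma adjusted p = 0.0158). The narrow groups lay apart. Its ratio to Proz, its partner, was 0.716 ± 0.000868 in L-RalyKO and 0.659 ± 0.0260 per kb in controls (SD, n = 3 each, two-sided exact permutation test, p = 0.1). Habp2, a protease that can activate factor VII, had 131, 124 and 119 against 98.7, 105 and 104 (log2 fold change 0.28, limma adjusted p = 0.0185). Of its exon bases 8.39% overlap Nrap on the other strand. Serpine2, protease nexin 1, an inhibitor of thrombin and of urokinase, had 33.9, 26.5 and 26.3 against 14.2, 17.1 and 21.1 (log2 fold change 0.70, limma adjusted p = 0.0245). The 3 calls were not firm, since without L-RalyKO 1 or without control 1 none of them passed, with adjusted p from 0.0592 to 0.0761 (limma).

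Regulators of clotting genes in hepatocytes were listed as well, 23 genes that were all tested, and 5 rose and none fell (limma), 21.7% against 6.55% of all genes. Lower ones numbered 3 at an unadjusted p under 0.05, and DESeq2 called 2 of these lower, among them Nr2f2. Hnf4a, the nuclear receptor that binds the promoters of many clotting factor genes, had values of 899.6, 809 and 829 in L-RalyKO and 520.3, 542 and 680.5 in control mice (log2 fold change 0.55, SE 0.099, limma adjusted p = 0.0155). Its mean was 45.5% higher. Foxa2, a forkhead factor of hepatocytes, had 33.0, 28.9 and 21.3 against 13.3, 13.9 and 16.7 (log2 fold change 0.86, limma adjusted p = 0.0126). The other called genes belong to the response to interleukin 6, which drives fibrinogen synthesis in the acute phase. Il6ra, its receptor, had values of 102, 81.6 and 97.4 against 53.5, 50.9 and 63.4 (log2 fold change 0.74, SE 0.10, limma adjusted p = 0.00566). Socs3, the feedback inhibitor of the pathway, had 13.6, 12.3 and 5.18 against 2.15, 2.59 and 3.54 (log2 fold change 1.51, limma adjusted p = 0.0214), with L-RalyKO 3 well below the other L-RalyKO mice. Stat3, its transcription factor, had 107, 104 and 102 against 87.5, 89.7 and 93.1 (log2 fold change 0.21, limma adjusted p = 0.0372). Il6st, Cebpb and Cebpd, also among the regulators listed, were not called. Their log2 fold changes were 0.01, −0.06 and −0.21 (limma adjusted p = 0.935, 0.716 and 0.341).

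Of the 5 regulators called, Il6ra had an adjusted p under 0.05 in every setting run. Of 18 alternative settings, the call was lost in 1 for Foxa2, 3 for Hnf4a, 6 for Socs3 and 8 for Stat3. Among these, Stat3 did not pass under total count scaling (limma adjusted p = 0.0528), nor Socs3 with limma voom (adjusted p = 0.0616). Without control 1, Il6ra was the only one left of the 5, with adjusted p of 0.0510 for Hnf4a, 0.0501 for Foxa2, 0.0780 for Socs3 and 0.117 for Stat3 (limma). The subunits of NF-Y (Nfya, Nfyb and Nfyc), which binds CCAAT, had log2 fold changes of −0.10, 0.06 and 0.01, and none passed.

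**Figure D5:**
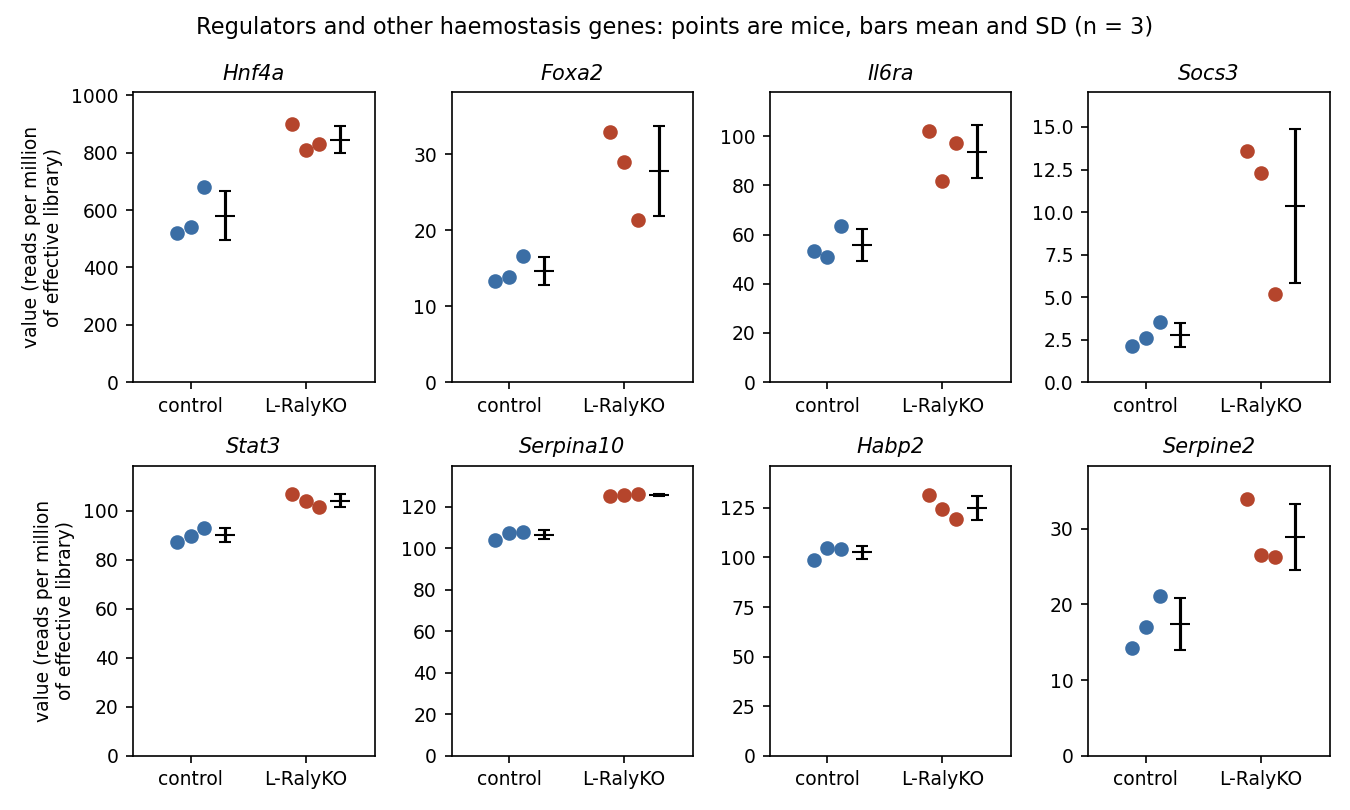
Value in each liver (scaled reads, axes from 0) for the regulators Hnf4a, Foxa2, Il6ra, Socs3 and Stat3 and for Serpina10, Habp2 and Serpine2, with control mice in blue, L-RalyKO mice in red and bars for the mean and SD of 3 mice. The groups do not overlap in any panel, and the 3 L-RalyKO mice are most scattered for Socs3, from 5.18 to 13.6.

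Of 14 plasma proteins of the acute phase, which rise together with fibrinogen in inflammation, 2 rose and none fell (limma), 14.3% against 6.55% of all genes. Saa1, a serum amyloid A protein, had values of 20.6, 23.0 and 24.0 in L-RalyKO and 15.9, 10.4 and 12.03 in control mice (log2 fold change 0.79, SE 0.13, limma adjusted p = 0.0118). Orm1, an alpha-1-acid glycoprotein, had 361, 376 and 373 against 303, 311 and 319.9 (log2 fold change 0.25, limma adjusted p = 0.0173), and without each mouse but control 3 it did not pass, with adjusted p from 0.0518 to 0.0607 (limma). Reads of both could have been split with a close relative, since 10.8% of the 50-base words of Saa1 occur in Saa2 and 20.4% of those of Orm1 in Orm2. The median log2 fold change of the 14 genes was 0.10, beside 0.00 over all genes tested. It was above 0 in 11 and below 0 in 3, and 12 were not called. Those below 0 were Saa3 (−0.24), Lcn2 (−0.12) and Apcs (−0.0013). For Lcn2 every L-RalyKO liver was below every control liver (1.92, 1.94 and 2.13 against 2.24, 2.14 and 2.43). Among those above 0, Crp had 0.02 and Saa2 had 0.22 (limma adjusted p = 0.836 and 0.548).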

How the data were processed

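Liver RNA-seq of 3 L-RalyKO and 3 control mice was used. The libraries were stranded and aligned with TopHat to mm9, and the submitters' processing notes name Cufflinks 2.0.2, whose FPKM values are not the deposited ones. What the authors deposited is a signal normalized to library size, namely read counts per gene over the effective number of reads. In each library 100% of the values were whole multiples of the value of 1 read (within 1e-06), so that reads could be recovered. Columns were assigned to groups by the virus they name and to mice by number, and that these are separate mice is taken from the study's methods, so that p-values measure the spread between these mice.

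The genes, their roles and the other lists were chosen with earlier results of these data known. The log2(value + 1) of L-RalyKO and control livers was tested with limma 3.58.1 (R 4.3.3, variance trend on), over genes whose mean value reached 1, adjusting by Benjamini-Hochberg, and intervals are at the 95% level. Scripts were tested on simulated data. Gene positions, exon lengths and 50-base words come from GENCODE vM1 on NCBIM37, and promoters from RefSeq on GRCm38.p6, which has other coordinates. Genes named with values in every liver were those called, those without overlap and an absolute log2 fold change of at least 0.3, and named factors of each role. In other lists, the genes called were named. Nr2f2, Nfya, Nfyb, Nfyc, Il6st, Cebpb, Cebpd, Anxa2 and S100a10 were added after their values were seen. So were Alb, Ambp, Ttr, Apoa1, Apoa2, Ahsg, Sox9, Saa2, Saa3, Lcn2, Apcs and Crp.

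Alternatives were edgeR 4.0.16 and DESeq2 1.42.0 on the recovered reads, limma voom, other scalings, filters and pseudocounts, no trend, a replicate block and leaving out each mouse. The counts of genes without overlap and of those above 0 were recomputed under alternatives chosen after seeing the data. A planned search for a motif in the proteins of these genes was not run, since no protein sequence was used here, and some planned genes and a promoter motif are not reported here. Between mice of 1 group the chi-square of the reads per degree of freedom was 14.8 to 101, where counting noise alone gives 1.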

Additional observations from a re-analysis of the deposited data

How the results depend on the processing

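F11 and Pros1 had an adjusted p under 0.05 in all settings run. The 3 coagulation genes called became 6 with DESeq2 on the recovered reads (F7, Fga and Kng2 added), 1 with a 1.5-fold minimum (F3) and 11 at an unadjusted p under 0.05, and 2 to 3 without single mice. F3 was not tested with a minimum mean value of 5, and its adjusted p without an intensity trend was 0.0550. The log2 fold change of F2 turned to −0.031 with total count scaling. Without single mice it ranged from −0.027 to 0.036 for F2, −0.13 to 0.0068 for Vwf, −0.033 to 0.031 for Serpinc1, −0.18 to 0.33 for Thbd and −0.14 to 0.040 for Tfpi, and none of these was called.

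Other haemostasis genes called numbered 6 with DESeq2, 1 without an intensity trend and 0 to 5 without single mice. Regulators numbered 8 with DESeq2 and 1 to 9 without single mice, and acute phase genes 4 with DESeq2 and 1 to 3. Over all genes, where 758 were called, DESeq2 called 1071 and 484 were called with all genes that had at least 1 read, 251 with a 1.5-fold minimum and 335 to 812 without single mice. Scaling to total counts gave 325 higher and 470 lower genes (40.9% higher, against 389 and 369, or 51.3%, as reported). The cause was not tested.

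Same-numbered mice are different animals, and their deviations did not go together (correlations of 0.07, −0.02 and 0.02). With the replicate block 704 genes were called, 353 higher and 351 lower, and the same 3 coagulation genes, while Serpine2 (limma adjusted p = 0.0531) and Stat3 (0.0685) were not called.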
